A study of Neurospora crassa with 12 samples.

Results

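The genes described here are the genes of *Neurospora crassa* whose codon bias index (CBI) is negative. CBI is a score of the codons of a coding sequence that is 1 where only preferred codons are used and 0 where synonymous codons are used at random, so a gene with a negative CBI uses preferred codons less often than random choice would. A CBI was listed for 9015 genes and was below 0 for 255 of them. A gene was kept if it had at least 1 read in its coding sequence in 2 or more of the 4 libraries of the accompanying mRNA-seq, which left 219 genes with negative CBI among 8600 genes that met the read requirement (36 genes were lost). The read requirement sets a floor under the levels given below.

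The libraries were made from 2 strains. Si*adat2* carries an inverted repeat against *adat2*, the predicted catalytic subunit of the tRNA adenosine deaminase, integrated at *his-3* of its host strain (*bd*, *A*, *his-3*) under the *qa-2* promoter, and was purified to a homokaryon through microconidia. WT is strain 87-3 (*bd*, *a*), so that the strains also differ in mating type and in the *his-3* background, which cannot be told apart from silencing. Both were grown in 0.1% glucose medium with 0.01 M quinic acid (QA), the inducer, first in plates (3 days) and then shaken at 200 rpm (1 day). The accompanying mRNA-seq (2 Si*adat2* and 2 WT libraries) was made from the cultures of a ribosome profiling experiment, which had 50 μg/ml cycloheximide for 10 min before harvest, and the independent mRNA-seq (2 Si*adat2* and 2 WT libraries) was made from cultures grown alike, with another kit and no cycloheximide. Ribosome occupancies, which were given per codon and not per gene, were not used.

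In *Neurospora*, as in many fungi, highly expressed genes use a strongly biased set of codons, most of which end in C or G. In the codon families served by deaminated tRNAs, the codons ending in C have no tRNA with a fully matching anticodon, and are read through inosine at the wobble position, the product of the deaminase. Genes with little bias stand at the opposite end of the range from the most abundant housekeeping genes. Of the 219 genes only NCU06422 had a gene symbol, *stk-42*, which denotes a serine/threonine protein kinase, and none of the results below turns on it. The term tables of the study place NCU06001 with the double-stranded RNA-binding-like domains, NCU02772 with the acyl-CoA N-acyltransferases and NCU08763 with vitamin metabolism, and the others are given by their identifiers.

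Several properties of the libraries bear on these genes. The accompanying libraries held 1547105 and 2777576 reads in Si*adat2* and 961703 and 2361460 reads in WT, of which the genes with negative CBI took 0.703% and 0.787% in Si*adat2* and 0.525% and 0.609% in WT. Their median gene had 13 and 31 reads in Si*adat2* and 5 and 12 reads in WT, so most of them were measured from few reads. The targeted gene *adat2* (NCU01888) had 16 and 90 reads in the libraries labelled Si*adat2* and 8 and 25 reads in those labelled WT (log2 fold change 0.91, adjusted p = 0.116 from edgeR), and was listed at 0 FPKM in all 4 independent libraries. The silencing construct itself carries *adat2* sequence, and reads of the construct and of the gene cannot be told apart in these counts. The mRNA libraries do not show a lower *adat2* level, and Si*adat2* and WT stand below for the libraries so labelled. Of 6 genes taken here as markers of asexual sporulation (*eas*, *con-6*, *con-8*, *con-10*, *ccg-1* and *con-13*), 5 were higher in Si*adat2* in the accompanying mRNA-seq. The 6 genes summed there to 171670 and 141717 FPKM in Si*adat2* and 16198 and 15926 FPKM in WT. Most of this sum came from *eas* in Si*adat2* and from *ccg-1* in WT. In the independent mRNA-seq, where *eas* is not in the tables used here, 4 of the 5 that were tested were higher and *ccg-1* was lower, with a sum of 10398 and 14122 FPKM in Si*adat2* and 24002 and 21786 FPKM in WT, most of it from *ccg-1* in each library. Of 5 sexual-stage genes (*mfa-1*, *ccg-4*, *pre-1*, *pre-2* and *poi-2*), the 3 tested in the independent mRNA-seq were higher, with a sum over the list of 2317 and 2595 FPKM in Si*adat2* and 92.3 and 81.2 FPKM in WT: *mfa-1*, a pheromone precursor gene, had 2304 and 2577 FPKM in Si*adat2* and 90.7 and 80.4 FPKM in WT, and *poi-2* had 10.3 and 13.1 FPKM in Si*adat2* and 0.474 and 0.223 FPKM in WT. Only *pre-1* could be tested in the accompanying mRNA-seq, where it was not called, with 15 and 234 reads in Si*adat2* and 6 and 234 reads in WT. The accompanying mRNA-seq has no entry for *mfa-1*, which held most of the independent sum. The other 4 genes summed there to 7.57 and 39.8 FPKM in Si*adat2* and 5.69 and 46.0 FPKM in WT, higher in replicate 2 of both strains. In the independent mRNA-seq *pre-2* had 2.73 and 4.06 FPKM in Si*adat2* and 0.606 and 0.495 FPKM in WT. There *ccg-4* had 0.209 and 0.176 FPKM in Si*adat2* and 0.210 and 0.121 FPKM in WT. The strains differ in mating type, which was not checked in these libraries, and its part in these levels was not tested. The part of sporulation or of the sexual stage in the differences below was not tested either. In such bulk samples fewer cells of a type and less RNA per cell cannot be told apart.

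CBI of the 219 genes ran from -0.444 to -0.001 with a median of -0.029. Only 25 genes were below -0.1 and 65 were below -0.05, whereas 83 lay between -0.02 and 0. Most of the genes therefore sit at the edge of the random expectation, and the strongly negative ones are few. The 3 genes just inside the threshold were NCU04735, NCU00663 and NCU08470, all with a CBI of -0.001, and the 3 just outside it were NCU05940, NCU07834 and NCU01236, all with a CBI of 0. NCU00663 had 51 and 79 reads in Si*adat2* and 8 and 20 reads in WT, and its neighbour across the threshold, NCU01236, had 76 and 128 reads in Si*adat2* and 18 and 45 reads in WT. Reads of both genes were fewer in both WT libraries than in either Si*adat2* library, before any scaling for depth.

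The coding sequences were short. Their median was 840 bases, against 1356 bases over all genes that met the read requirement, and 84 of 219 (38.4%) were under 600 bases, against 13.9% of all genes. At the other end 10 of 219 (4.57%) reached 3000 bases, against 10.2% of all genes. The shortest were NCU02876 with 201 bases, NCU11349 with 207 bases and NCU08508 with 240 bases. The longest were NCU01472 with 4494 bases, NCU02976 with 3750 bases and NCU00128 with 3474 bases. An index of codon usage rests on few codons in a short gene, and length and CBI moved together inside the set: the 25 genes below -0.1 had a median of 372 bases, those from -0.1 to -0.05 a median of 631.5 bases, those from -0.05 to -0.02 a median of 993 bases and those from -0.02 to 0 a median of 1074 bases.

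The gene models were also plain. In 77 of 217 genes (35.5%) the annotated transcript was exactly the coding sequence, with no untranslated region, against 12.04% of all genes, and only 10 of 217 (4.61%) had 2 or more annotated transcripts, against 10.2%. Untranslated regions were missing most often in the genes under 600 bases, where 56.6% of the genes with negative CBI had none, against 24.96% of all genes of that length. The genes were spread over the 7 chromosomes, making up between 1.99% (chromosome VII) and 3.56% (chromosome II) of the genes there. Another annotated gene overlapped 46 of them (21.0%), against 24.2% of all genes, 19 lay next to another gene of the set, and 4 lay within 100 kb of the first or last annotated gene of a chromosome (1.83%, against 4.06% of all genes). Whether counting used strand is not stated, so reads of overlapping genes may be shared; among the genes named below this concerns NCU00663, NCU01560, NCU01967, NCU02692, NCU02772, NCU05197, NCU06224, NCU06808, NCU08185, NCU08360, NCU08455 and NCU08763.

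The genes with negative CBI had low mRNA levels in every library. Their median was 6.44 and 8.59 FPKM in Si*adat2* and 3.85 and 4.46 FPKM in WT in the accompanying mRNA-seq. Over all genes the medians were 21.1 and 22.4 FPKM in Si*adat2* and 16.7 and 16.9 FPKM in WT, so that the median of all genes was higher by 3.28 and 2.61 times in Si*adat2* and by 4.34 and 3.79 times in WT. In the independent mRNA-seq the median of the set was 2.25 and 3.15 FPKM in Si*adat2* and 1.13 and 1.10 FPKM in WT, against 13.96 and 13.3 FPKM in Si*adat2* and 14.1 and 13.9 FPKM in WT over all genes. The gap was wider there, 6.19 and 4.24 times in Si*adat2* and 12.5 and 12.6 times in WT, since many of the genes were listed at 0. These medians rest on which genes are kept: over the 158 genes read in all 4 accompanying libraries the median of the 4-library mean was 10.1 FPKM in the accompanying and 6.32 FPKM in the independent mRNA-seq, against 6.64 and 2.40 FPKM over all 219.

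**Figure D1:**
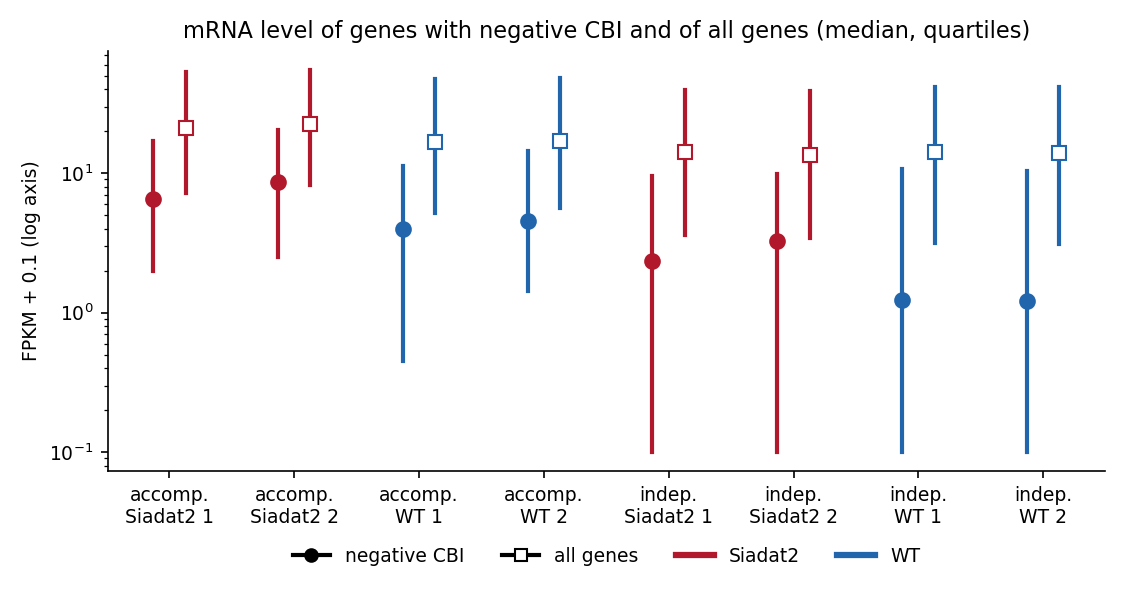
Medians (markers) and quartiles (bars) of FPKM + 0.1 on a log axis in each of the 8 mRNA libraries, for the genes with negative CBI (filled circles) and all genes with reads in 2 or more accompanying libraries (open squares), with Si*adat2* in red and WT in blue. The filled circle lies below the open square in all 8 libraries, and the lower quartile of the genes with negative CBI is 0 FPKM (drawn at 0.1) in the 4 independent libraries.

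The low level was the end of a gradient over the whole range of CBI. In steps of 0.1, the median level in the accompanying Si*adat2* libraries was 6.64 and 9.41 FPKM for CBI from -0.1 to 0, 10.0 and 11.0 FPKM from 0 to 0.1, 15.7 and 17.2 FPKM from 0.1 to 0.2, and 123 and 127 FPKM at 0.5 and over. In the WT libraries the same steps had 4.43 and 4.95, 6.31 and 7.02, 11.1 and 11.8, and 147 and 147 FPKM. The order of the steps was the same in all 8 libraries. The set was thus a continuation of the genes with slightly positive CBI rather than a group apart, except in the independent mRNA-seq, where the medians were 2.82 and 4.29 FPKM in Si*adat2* and 1.59 and 1.65 FPKM in WT below 0, against 5.71 and 5.37 FPKM in Si*adat2* and 5.53 and 5.21 FPKM in WT from 0 to 0.1.

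**Figure D2:**
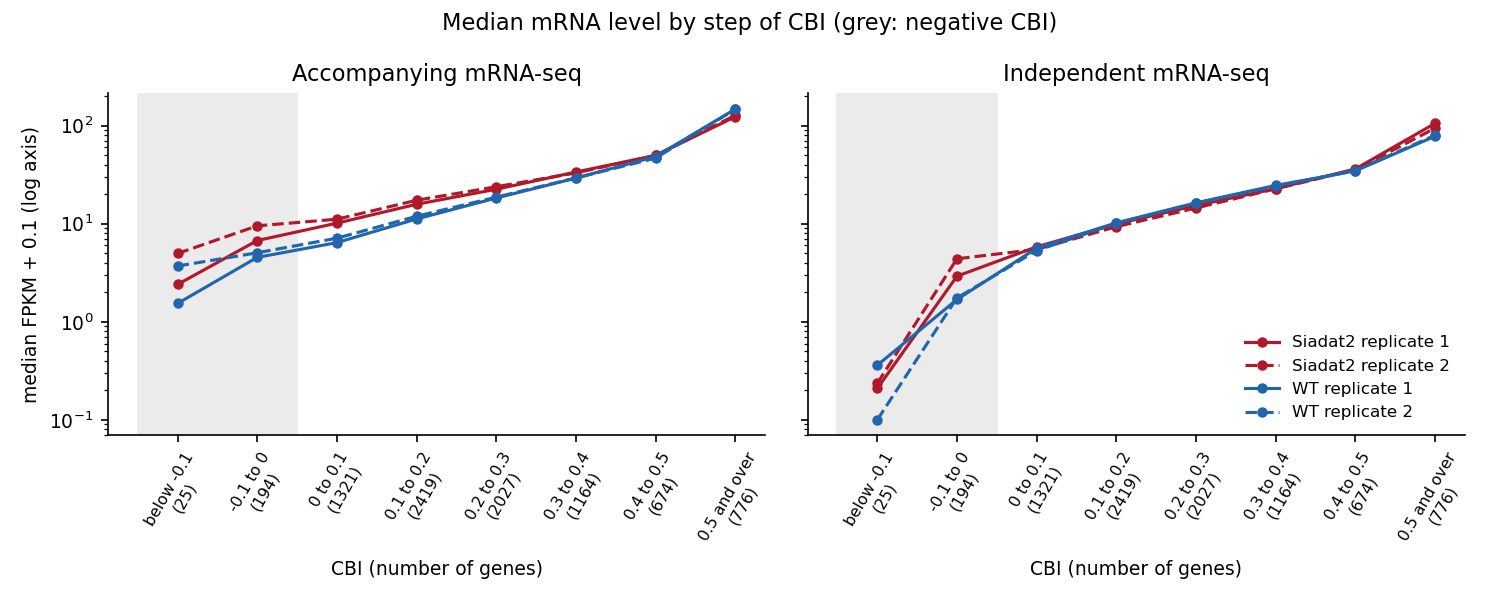
Median FPKM + 0.1 (log axis) of genes in steps of CBI, with the number of genes in parentheses, in the accompanying (left) and independent (right) mRNA-seq, with a line for each library. The 2 steps of negative CBI are shaded, and the medians rise from the step at -0.1 to 0 up to 123 to 147 FPKM in the accompanying libraries and 77.9 to 105 FPKM in the independent ones at 0.5 and over.

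A listing at 0 in the independent tables was common in the set. All 4 libraries listed 0 FPKM for 56 of 217 genes (25.8%), against 555 of 8535 genes (6.503%) in all, and among genes under 600 bases for 44 of 83 (53.0%), against 17.1% of all genes of that length. Genes listed at 0 there could have accompanying reads: 10 of the 56 genes had 100 or more reads summed over the 4 accompanying libraries, against 177 of the 555. No read counts are given for the independent libraries, so whether reads of these genes were seen in them is not known. The most were 605 reads in NCU01967, and *adat2* itself was listed at 0. Over the loci of 28 of the 56 genes the tables held an unannotated transcript with a level above 0 in all 4 libraries, over 17 another annotated gene had one, and over 43 either was present. Among the 555 genes these counts were 182, 262 and 431, so that such loci were not particular to the set. NCU10342 (chromosome II, 253287 to 253853 of assembly NC12) is such a gene: it was listed at 0 in all 4 independent libraries, while unannotated transcripts over its locus summed to 5.23 and 11.4 FPKM in Si*adat2* and 1.85 and 1.82 FPKM in WT, and it had 90 and 119 accompanying reads in Si*adat2* and 1 and 9 in WT.

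The 6 genes with the lowest CBI were NCU00254 (-0.444), NCU00851 (-0.41), NCU04937 (-0.367), NCU08508 (-0.353), NCU02876 (-0.255) and NCU05197 (-0.199). All had coding sequences of 777 bases or fewer. NCU00254, NCU04937 and NCU08508 had at most 4 reads in any accompanying library and were listed at 0 in all 4 independent ones, too few to compare the strains. NCU05197 had 27 and 83 reads in Si*adat2* and 14 and 49 reads in WT (log2 fold change 0.11, standard error 0.33, edgeR adjusted p = 0.802), and was also listed at 0 in all 4 independent libraries. NCU00851 (chromosome I, 6958974 to 6959369) differed between the strains in the independent mRNA-seq, with 8.19 and 8.94 FPKM in Si*adat2* and 0.118 and 0 FPKM in WT (limma adjusted p = 0.00341). The accompanying libraries held 0 and 0 of its reads in Si*adat2* and 1 and 3 reads in WT, and the gene was not tested there. Each count is at or under the 3 reads that a count of 0 allows. The higher Si*adat2* level of the independent libraries was not seen in these reads.

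A few genes of the set were abundant. Reads were concentrated in them: 10 genes held 49.9% and 49.5% of the reads of the set in Si*adat2* and 55.0% and 54.1% in WT. The most abundant was NCU04951 (chromosome IV, 844195 to 845210), with a CBI of -0.077 and 321 coding bases, which alone held 15.3% and 19.4% of these reads in Si*adat2* and 15.8% and 19.1% in WT. Its level was 2602 and 3735 FPKM in Si*adat2* and 2342 and 2385 FPKM in WT in the independent mRNA-seq. The 2 independent Si*adat2* libraries were further apart than the strain means, and the difference did not pass the test in either kind of mRNA-seq (log2 fold change 0.40 ± 0.21 with limma adjusted p = 0.205, and 0.09 ± 0.16 with edgeR adjusted p = 0.663, ± standard error).

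The next most abundant genes by independent FPKM were NCU10603, NCU06224, NCU03791, NCU08455, NCU04914, NCU09160 and NCU05691, with means over the 4 libraries between 106.8 and 467 FPKM. NCU04914 had 143 and 133 FPKM in Si*adat2* and 213 and 200 FPKM in WT, and NCU05691 had 82.0 and 85.0 FPKM in Si*adat2* and 135 and 125 FPKM in WT. Both were lower in Si*adat2* in both kinds of mRNA-seq. NCU03791 had 106 and 225 accompanying reads in Si*adat2* and 138 and 315 in WT (log2 fold change -1.16, edgeR adjusted p = 2.38e-05), but 164.5 and 244 FPKM in Si*adat2* and 206 and 201 FPKM in WT in the independent mRNA-seq, where the groups overlapped (limma adjusted p = 0.941). NCU09160 had 633 and 1214 accompanying reads in Si*adat2* and 418 and 1255 in WT (log2 fold change -0.49, edgeR adjusted p = 0.0033). This call was lost without WT replicate 2 (log2 fold change -0.32) and with scaling by library totals (-0.20), and the independent libraries had 174 and 285 FPKM in Si*adat2* and 116 and 81.8 FPKM in WT (log2 fold change 1.19, limma adjusted p = 0.0515). Abundant genes of the set thus moved in different directions or in 1 kind of mRNA-seq alone.

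Of the 219 genes, 136 had enough accompanying reads to test the difference between Si*adat2* and WT (quasi-likelihood test of edgeR, p adjusted after Benjamini and Hochberg over 7362 genes, threshold 0.05). Of these, 41 (30.1%) were higher and 21 (15.4%) were lower in Si*adat2*, where 23.9% of all genes tested were higher and 25.9% were lower. A gene could enter the test through the reads of 1 strain alone. The median log2 fold change was 0.27 over the 136 genes and 0.03 over all genes. Genes next to the set had much the same shares: with CBI from 0 to 0.1, 29.1% were higher and 14.9% were lower, with a median log2 fold change of 0.28. The tilt to higher calls was thus shared with genes of slightly positive CBI, a comparison of shares with no test. The shares of calls moved with scaling. With library totals in place of TMM factors the median log2 fold change was 0.56 over the 136 genes and 0.32 over all genes. Of all calls 65.7% rather than 48.0% were then higher. The set then had 49 higher calls (36.0% beside 36.5% of all genes) and 14 lower calls (10.3% beside 19.0%). The excess of higher calls was thus absent with library totals. With no filter 19.6% of 219 genes were higher beside 20.6% of 9015 genes, and 10.5% were lower beside 22.0%. That fit adds genes with few reads, a larger part of the set than of all genes, so its shares cannot be set against the others. Without Si*adat2* replicate 2 the set had 23 higher genes of 130, which is 17.7% beside 17.7% of all genes, so the excess of higher calls was gone. With DESeq2 it had 25, which is 18.4% beside 15.3% of all genes. The share of lower calls stayed below that of all genes in every accompanying fit of all libraries, with DESeq2 at 11.8% beside 20.5%.

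In the independent mRNA-seq 122 of the 219 genes had a mean of at least 1 FPKM and could be tested (limma on log2(FPKM + 0.1), adjusted over 7549 genes). There 22 (18.0%) were higher and 30 (24.6%) were lower in Si*adat2*, where 20.9% of all genes tested were higher and 28.3% were lower, and the median log2 fold change was -0.04 over the set and -0.13 over all genes. The set was close to the background in both directions. The median difference between replicates over the 122 genes was 0.26 on the log2 scale in Si*adat2* and 0.10 in WT. Without WT replicate 1 the set had 15 higher and 3 lower genes, and without WT replicate 2 it had 14 higher and 3 lower genes. All genes shifted in the same way, to 8.96% higher and 5.10% lower without WT replicate 1 and 8.33% higher and 4.90% lower without WT replicate 2. By the ratio of strain means past 2-fold, with no test, 30 of 146 genes with both means above 0 were higher and 18 were lower, against 15.1% and 12.7% of all genes. The 30 became 21 and 22 without WT replicate 1 and WT replicate 2, and 71 of the 219 genes entered neither test.

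**Figure D3:**
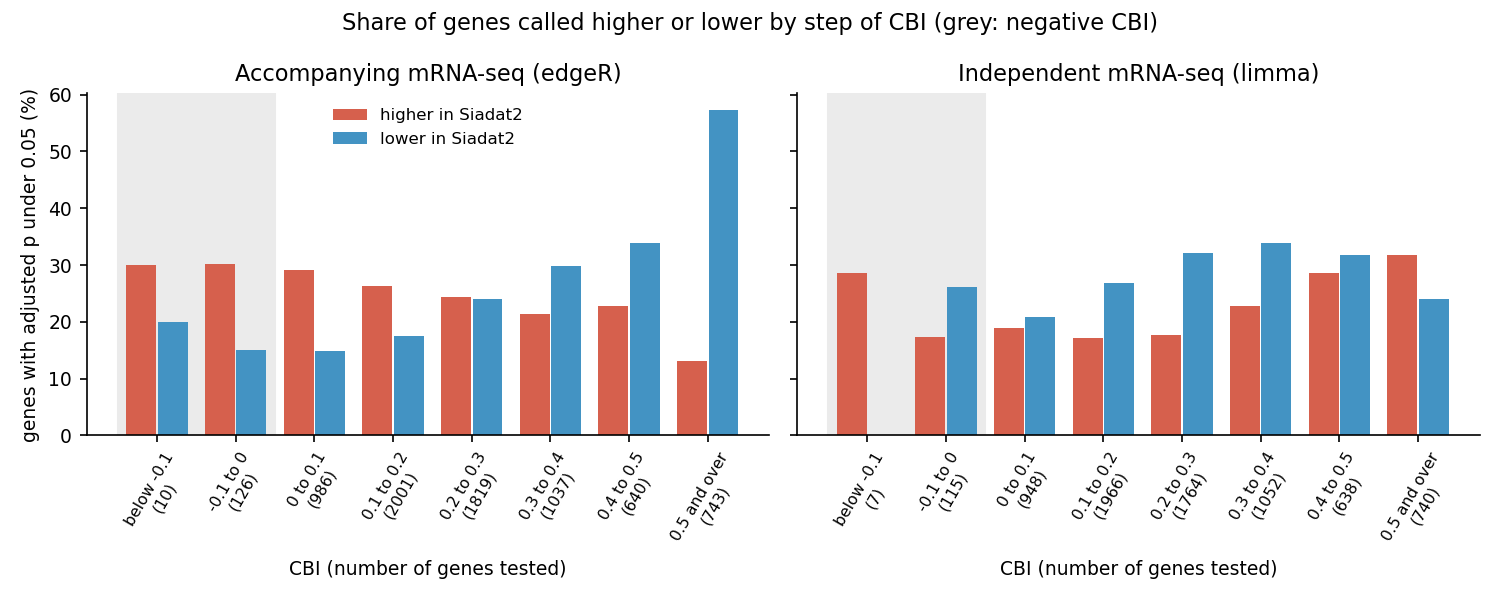
Percent of tested genes that were higher (red) or lower (blue) in Si*adat2* at an adjusted p under 0.05, in steps of CBI with the number of genes tested in parentheses, for the accompanying (left) and independent (right) mRNA-seq. The shaded steps of negative CBI hold 10 and 126 genes on the left and 7 and 115 genes on the right, and the step from -0.1 to 0 has 30.2% higher and 15.1% lower on the left, close to 29.1% and 14.9% in the next step.

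The 2 kinds of mRNA-seq were made from different libraries, so that genes called the same way in both rest on 4 libraries of each strain. Among 110 genes tested in both, 15 (13.6%) were higher in both, where 7.55% of all 6878 genes tested in both were, and these are 46.9% of the higher accompanying calls and 15 of the 20 higher independent calls among the 110 genes. A further 10 (9.09%) were lower in both, where 11.2% of all genes were, and these are 47.6% and 34.5% of the lower calls. One of the 15, NCU01311, lost its accompanying call with the replicate number as a block, with DESeq2, with no filter and in 3 of the fits without a library. None of the 110 genes was lower in the accompanying and higher in the independent mRNA-seq, where 335 of the 6878 genes were. The reverse held for 3 genes, NCU02692, NCU06707 and NCU08360, and for 260 of the 6878 genes. Each of these calls was lost in some fit without 1 library. NCU02692, for example, had an accompanying log2 fold change of 1.12, which was 0.66 without WT replicate 2, and an independent one of -0.65, which was -0.67 without WT replicate 1 and no longer called.

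**Figure D4:**
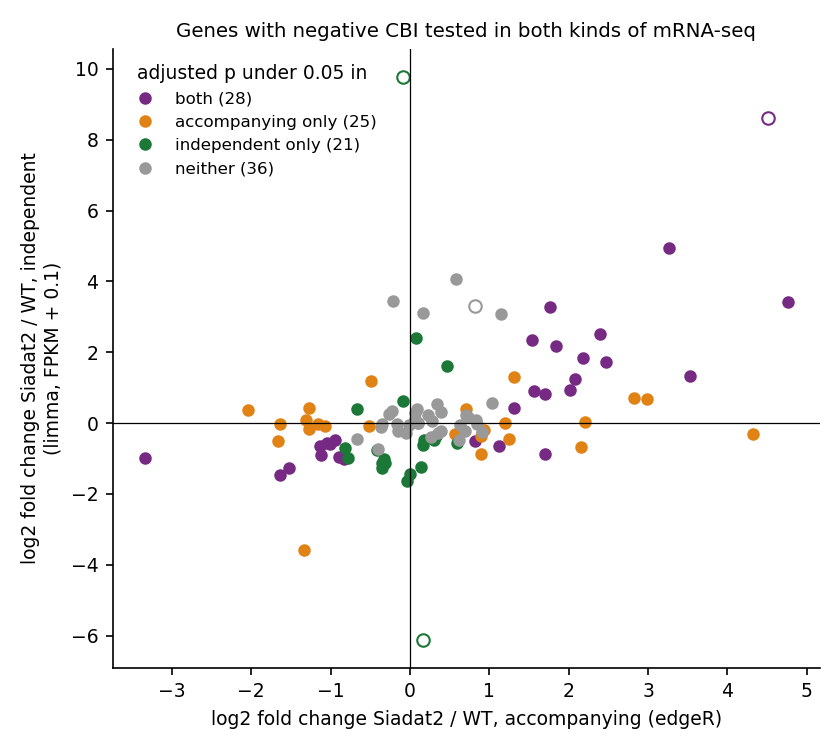
log2 fold change of Si*adat2* over WT in the accompanying (horizontal) and independent (vertical) mRNA-seq for the 110 genes with negative CBI tested in both, coloured by where the adjusted p was under 0.05. Open circles are the 4 genes listed at 0 FPKM in both independent libraries of a strain, whose vertical position depends on the 0.1 added before the log; 28 genes were called in both kinds, 25 of them in the same direction.

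NCU10603 (chromosome I, 6716804 to 6718071, 600 coding bases, CBI -0.166) was the most abundant gene that was higher in both. It had 643 and 918 FPKM in Si*adat2* and 171 and 135 FPKM in WT in the independent mRNA-seq, a log2 fold change of 2.34 (standard error 0.24, limma adjusted p = 0.00503). In the accompanying mRNA-seq it had 204 and 416 reads in Si*adat2* and 28 and 109 reads in WT, a log2 fold change of 1.54 (standard error 0.20, edgeR adjusted p = 1.4e-05). Every Si*adat2* library was above every WT library of its kind in FPKM, by more than the replicates differed. The independent call was lost without WT replicate 2 (log2 fold change 2.17).

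NCU08307 (chromosome IV, 2460694 to 2465048) had 42.2 and 36.3 FPKM in Si*adat2* and 10.9 and 10.9 FPKM in WT in the independent mRNA-seq, and 166 and 267 reads in Si*adat2* and 9 and 54 reads in WT in the accompanying one. Its log2 fold changes were 1.84 (limma adjusted p = 0.0018) and 2.18 (edgeR adjusted p = 5.68e-06), and neither call was lost when any library was left out. NCU00646 (chromosome I, 7714560 to 7717622) behaved alike, with 25.9 and 30.8 FPKM in Si*adat2* and 5.56 and 4.24 FPKM in WT, and 28 and 66 reads in Si*adat2* and 2 and 9 reads in WT. Its log2 fold changes were 2.52 (limma adjusted p = 0.00271) and 2.39 (edgeR adjusted p = 0.000525), and these also held in each fit without a library.

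Genes with few WT reads were also among the higher genes. NCU00128 (chromosome III, 2722532 to 2726114, 3474 coding bases) had 143 and 247 reads in Si*adat2* and 1 and 8 reads in WT in the accompanying mRNA-seq, the largest log2 fold change of the set there (4.76, standard error 0.34, edgeR adjusted p = 1.83e-08). In the independent mRNA-seq it had 6.32 and 4.98 FPKM in Si*adat2* and 0.774 and 0.226 FPKM in WT (log2 fold change 3.42, limma adjusted p = 0.016), a call lost without either Si*adat2* library (log2 fold change 3.25 without replicate 1 and 3.59 without replicate 2). NCU06514 (chromosome IV, 1489046 to 1490301) had 23 and 62 reads in Si*adat2* and 4 and 1 reads in WT, and 2.82 and 4.80 FPKM in Si*adat2* and 0 and 0.0495 FPKM in WT. Both genes were close to the limit of detection in WT, so the sizes of their changes are uncertain, while their groups did not overlap in either kind. NCU06001, placed with the double-stranded RNA-binding-like domains, had 120 and 121 FPKM in Si*adat2* and 93.5 and 84.6 FPKM in WT, and 84 and 150 reads in Si*adat2* and 17 and 42 reads in WT, a smaller change in the independent (log2 fold change 0.43) than in the accompanying mRNA-seq (1.32). Its independent call was lost without any 1 of the 4 libraries, with log2 fold changes between 0.36 and 0.51.

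NCU03518 (chromosome II, 402017 to 404462, CBI -0.04) was lower in both kinds of mRNA-seq. It had 8.59 and 11.3 FPKM in Si*adat2* and 28.6 and 26.0 FPKM in WT in the independent mRNA-seq (log2 fold change -1.46, standard error 0.17, limma adjusted p = 0.00706). In the accompanying mRNA-seq it had 101 and 174 reads in Si*adat2* and 154 and 391 reads in WT (log2 fold change -1.64, standard error 0.16, edgeR adjusted p = 4.28e-07). The groups did not overlap in either kind. NCU08763 (chromosome III, 5231463 to 5235227), placed with vitamin metabolism, had 2.25 and 1.99 FPKM in Si*adat2* and 5.72 and 4.91 FPKM in WT, and 16 and 70 reads in Si*adat2* and 35 and 119 reads in WT, with log2 fold changes of -1.28 (limma adjusted p = 0.00894) and -1.53 (edgeR adjusted p = 0.00113). The other lower genes called in both were NCU01560, NCU06862, NCU09839, NCU05691, NCU03142, NCU05315, NCU04914 and NCU00688. Of these, the accompanying calls of NCU01560 (log2 fold change -0.89), NCU09839 (-1.12) and NCU03142 (-0.83) were lost without Si*adat2* replicate 1 (-0.70, -0.76 and -0.56), and those of NCU01560 and NCU09839 also without WT replicate 2 (-0.68 and -1.21). With library totals these 3 were lost as well (-0.60, -0.83 and -0.54), and NCU06862 (-1.05) was lost without WT replicate 2 (-0.46) or Si*adat2* replicate 2 (-0.69). The independent calls of the 10 genes were lost without WT replicate 1 or WT replicate 2, that of NCU03518, for example, with log2 fold changes of -1.39 and -1.53 that did not pass the test.

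**Figure D5:**
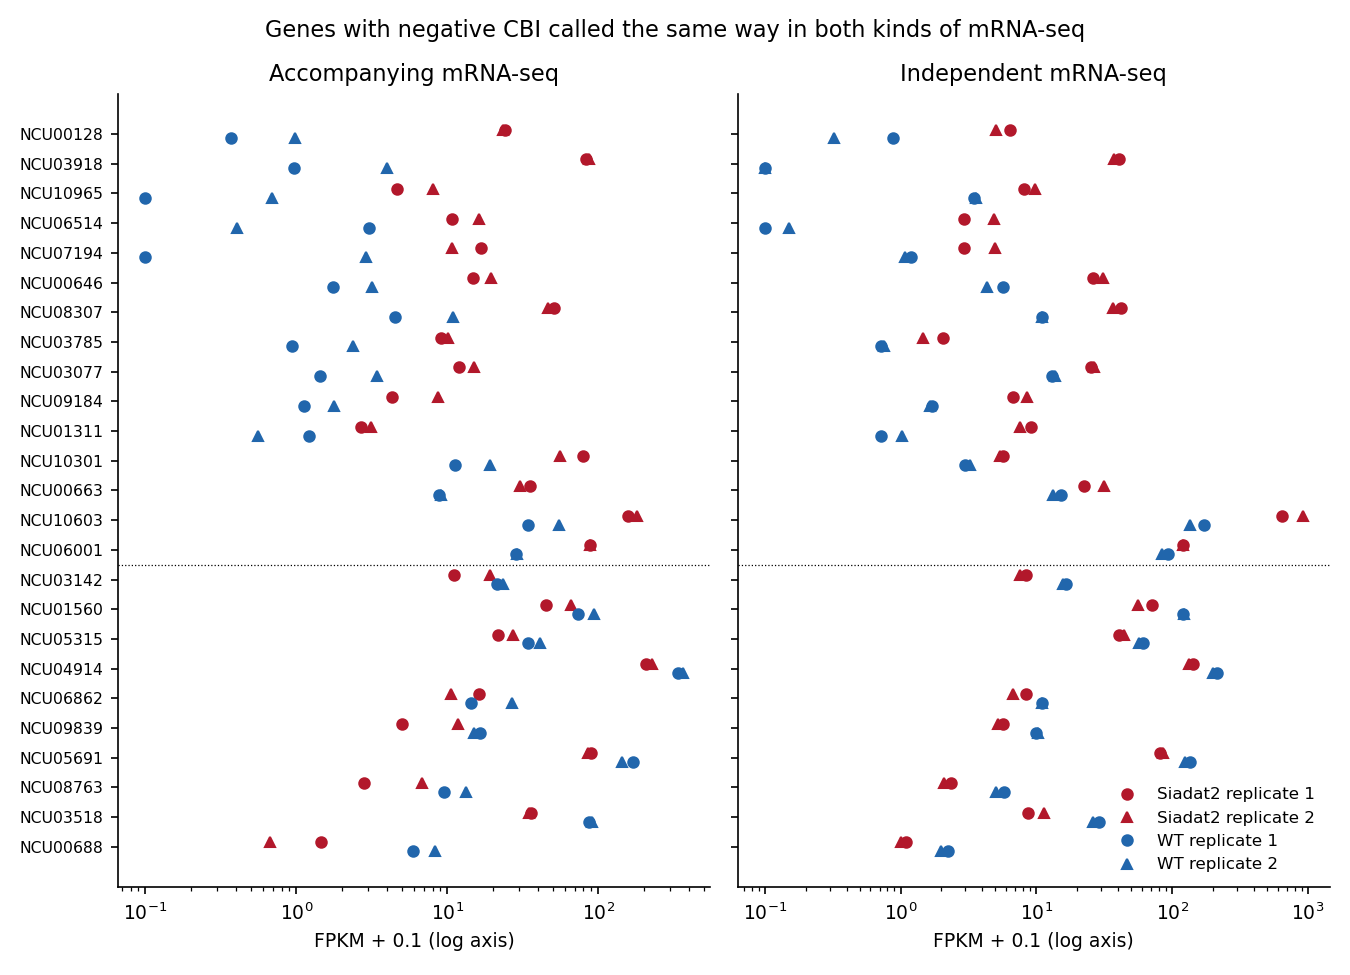
FPKM + 0.1 (log axis) of the 25 genes with negative CBI called in the same direction in both kinds of mRNA-seq, 1 symbol per library (Si*adat2* in red, WT in blue), with the accompanying mRNA-seq on the left and the independent on the right. Genes above the dotted line were higher and those below it lower in Si*adat2*; NCU10603 is the only one of them above 600 FPKM in a library.

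Some differences appeared in the independent mRNA-seq alone. NCU04641 (chromosome V, 1361835 to 1363906) had 41.4 and 40.9 FPKM in Si*adat2* and 7.88 and 7.58 FPKM in WT (log2 fold change 2.40, limma adjusted p = 0.00079), but 130 and 190 reads in Si*adat2* and 53 and 144 reads in WT (log2 fold change 0.07, edgeR adjusted p = 0.772). NCU04070 had 5.25 and 5.09 FPKM in Si*adat2* and 16.2 and 16.6 FPKM in WT (log2 fold change -1.65, limma adjusted p = 0.00156), with 19 and 53 reads in Si*adat2* and 11 and 35 reads in WT (edgeR adjusted p = 0.938). Their independent replicates were close, and both calls held without any single library. The difference between the 2 kinds was not tested.

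Listings at 0 account for the most extreme independent values. NCU02772 (chromosome I, 9248424 to 9250112), placed with the acyl-CoA N-acyltransferases, was listed at 80.7 and 93.3 FPKM in Si*adat2* and at 0 and 0 FPKM in WT, yet it had 85 and 208 accompanying reads in Si*adat2* and 42 and 155 reads in WT (log2 fold change -0.08, edgeR adjusted p = 0.782). It overlaps an annotated gene listed at 104 and 99.5 FPKM in Si*adat2* and 103 and 107 FPKM in WT. NCU12131 was listed at 0 and 0 FPKM in Si*adat2* and at 6.43 and 7.29 FPKM in WT, while it had 35 and 135 accompanying reads in Si*adat2* and 19 and 74 reads in WT. NCU03918 (chromosome VI, 2134703 to 2135858) was listed at 40.4 and 37.5 FPKM in Si*adat2* and at 0 and 0 FPKM in WT, and here the reads moved with it, 153 and 286 in Si*adat2* and 1 and 11 in WT (log2 fold change 4.51, standard error 0.32, edgeR adjusted p = 1.95e-08). No fold is given for the 3 genes in the independent mRNA-seq. Without genes listed at 0 in both libraries of a strain, the set had 20 higher and 29 lower calls there.

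The largest accompanying change among abundant genes was that of NCU08455 (chromosome II, 3577345 to 3578476), with 1493 and 2168 reads in Si*adat2* and 31 and 89 reads in WT (log2 fold change 4.32, standard error 0.17, edgeR adjusted p = 2.52e-11). In the independent mRNA-seq it had 138 and 202 FPKM in Si*adat2* and 221 and 195 FPKM in WT (log2 fold change -0.32, limma adjusted p = 0.314), where the groups overlapped. The accompanying reads of the sporulation marker *eas* (NCU08457) moved with it, 107466 and 146950 in Si*adat2* and 1172 and 2988 in WT, a relation that was not tested. NCU08455 overlaps another annotated gene, and whether its reads were shared with another gene was not tested. NCU10342, described above, and NCU06808, with 40 and 62 reads in Si*adat2* and 6 and 5 reads in WT, were likewise higher in the accompanying mRNA-seq (log2 fold changes 3.76 and 2.49) and could not be compared in the independent one, where they were listed at 0 in all 4 libraries.

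Among genes lower in the accompanying mRNA-seq alone, NCU08185 (chromosome VII, 3668351 to 3670374) had 55 and 115 reads in Si*adat2* and 113 and 335 reads in WT (log2 fold change -2.04, edgeR adjusted p = 2.12e-07). Its independent levels were 10.9 and 17.8 FPKM in Si*adat2* and 10.6 and 11.0 FPKM in WT (limma adjusted p = 0.33). NCU02882 and NCU06772 showed the same pattern, with accompanying log2 fold changes of -1.30 and -1.28 and independent ones of 0.08 and -0.16 that did not pass the test. Where the 2 kinds of mRNA-seq part in this way, cycloheximide, the library kit and the mapping reference differ between them and cannot be told apart.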

How the data were processed

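The mRNA levels of 2 strains were taken from 8 libraries, 2 of each strain in each kind of mRNA-seq. For the accompanying libraries the authors gave a read count per coding sequence, an FPKM made from it, and CBI, a score from CodonW, all used as deposited. Reads of 25 nt or more that were free of rRNA and tRNA had been mapped uniquely with Bowtie2 to coding sequences with 100 bp on each side, and the deposited lengths include these 200 bases, which were subtracted here. For the independent libraries the authors gave FPKM and read coverage (a signal per base, used only for relative depth) of each transcript on assembly NC12, and the submitters' processing notes name TopHat2 and Cufflinks. Genes without a read are not listed in the accompanying tables and were taken as 0.

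Counts were tested with edgeR 4.0.16 (TMM; filterByExpr, minimum count 10; glmQLFit; glmQLFTest) and log2(FPKM + 0.1) with limma 3.58.1 with a trend, over genes with a mean of at least 1 FPKM and with transcripts of a gene summed, in R 4.3.3. Fold changes of low genes on the log2(FPKM + 0.1) scale are understated. DESeq2 1.42.0 was an alternative. Both models and DESeq2 were tested on simulated data. All p-values were adjusted over all genes tested. Replicates are separate libraries in the labels, and p-values measure only the spread between them. The 2 replicates of a strain differed by more than counting noise in the accompanying mRNA-seq (chi-square per degree of freedom 3.89 in Si*adat2* and 2.92 in WT). Intervals were not computed, and the limit of 3 reads covers counting error only; it corresponds to 1.94 and 1.08 RPM in Si*adat2* and 3.12 and 1.27 in WT. Depth of the independent libraries is unknown; their coverage per FPKM was 9.45 and 10.3 in Si*adat2* and 11.1 and 7.30 in WT.

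The accompanying numbers pair a Si*adat2* with a WT library of the same experiment (from the methods of the study, which describe 2 experiments), and the correlation of the deviations of same-numbered libraries was 0.28; in the independent mRNA-seq it was 0.01 and the libraries share only a number. All 219 genes were found in the RefSeq gene table of NC12, which holds no sequence or product name, so gene lists by product could not be applied and no sequence was used. Members and lists were chosen with earlier results of these data known. The rule for naming took the genes with the lowest CBI (6), nearest to 0 (3 on each side), the highest independent FPKM (8), and the longest and shortest (3 each). It also took the largest changes among called genes with non-overlapping groups (8 per direction and kind, mean of at least 5 FPKM or 20 reads). The largest called in both kinds (5 per direction) and genes with a symbol were added. Some genes with large changes that met the rule, such as NCU02174, NCU09428 and NCU09184, are not described above. NCU01311, NCU06156, NCU06001, NCU01967, NCU12131, NCU02692, NCU06707, NCU08360, NCU06862 and NCU05315 fall outside this rule and were picked once their values were known. Python 3.11.15 with pandas 2.3.3, numpy 2.4.6 and matplotlib 3.10.9 served for descriptions and figures.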

Additional observations from a re-analysis of the deposited data

Results flagged for a closer look

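In 22 of 217 genes with negative CBI (10.1%) both Si*adat2* libraries were above both WT libraries in accompanying FPKM and below both in independent FPKM, against 18.3% of all genes. The other way went 1 of the 217 genes, against 522 of 8535 genes in all. The log2 ratio of accompanying FPKM means exceeded the edgeR log2 fold change by a median of 0.31, so deposited FPKM favours the first direction. The difference between the 2 kinds was not tested. The 5 given here are those that were named by the rule or called in both kinds. NCU06707 had 40 and 81 reads in Si*adat2* and 11 and 11 reads in WT (log2 fold change 1.70, edgeR adjusted p = 0.00266), but 15.7 and 13.1 FPKM in Si*adat2* and 27.4 and 25.9 FPKM in WT (-0.89, limma adjusted p = 0.0104). NCU02692 had log2 fold changes of 1.12 and -0.65, and NCU08360 of 0.82 and -0.50, with both called in both kinds. NCU06224 had 0.89, called, and -0.36, not called. NCU04671 had -0.0047 in the accompanying fit, where only the deposited FPKM separated the strains, and -1.43, called, in the independent one.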

How the results depend on the processing

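The number of genes with negative CBI was 158 with reads required in all 4 libraries and 65 with CBI below -0.05. Their median level, 6.64 FPKM in the accompanying and 2.40 FPKM in the independent mRNA-seq, was 10.1 and 6.32 FPKM over the 158 genes, 4.19 and 0.332 FPKM over the 65, and 6.29 FPKM in the independent mRNA-seq without genes listed at 0 in all 4 libraries, an alternative chosen after seeing the data. In the accompanying mRNA-seq the 41 higher and 21 lower calls became 25 and 16 with DESeq2, and between 23 and 42 higher and 15 and 29 lower when a library was left out. The median log2 fold change of the genes tested was 0.27, between 0.14 and 0.46 without a library, and 0.56 with library totals (chosen after seeing the data). In the independent mRNA-seq the 22 higher and 30 lower calls became between 14 and 29 higher and 3 and 37 lower without a library, the median, -0.04, lay between -0.12 and 0.01, while all genes had between 630 and 1770 higher and 371 and 2774 lower calls, and the ratio of means past 2-fold gave between 21 and 35 higher and 16 and 19 lower genes. A block for the replicate number gave 42 higher and 24 lower calls in the accompanying mRNA-seq (30.9% and 17.6%, beside 27.5% and 28.9% of all genes). There 60 of 62 calls were kept, NCU06156 and NCU01311 were lost and 6 genes were gained. In the independent mRNA-seq, where the libraries share only a number, it gave 17 higher and 21 lower calls (13.9% and 17.2%, beside 17.4% and 21.8%). Without genes that overlap another gene (chosen after seeing the data) the calls were 31 and 15 in the accompanying and 16 and 22 in the independent mRNA-seq. No share over all genes was computed for that alternative. Of the genes that were named by the rule or called in both kinds, 30 of 42 accompanying calls and 8 of 35 independent calls were kept in every fit without a library. Adjusted p of the 26 such independent calls lost without WT replicate 2 lay between 0.0506 and 0.246 (limma). None of these calls reversed under any alternative. The cause of these shifts was not tested.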
